A study of Mus musculus with 12 samples.

Results

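The genes that make histones during DNA replication were followed through 2 lists of MOF binding sites from mouse visceral white adipose tissue. Members were all protein-coding genes of GENCODE mouse release M21 whose symbol starts with Hist1h, Hist2h, Hist3h or Hist4h. The rule found 67 of 21951 protein-coding genes and left out 3 pseudogenes. Of these members 6 code for H1, 18 for H2A, 18 for H2B, 12 for H3 and 13 for H4.

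MOF was mapped by chromatin immunoprecipitation and sequencing (ChIP-seq) in C57BL/6 mice aged 8 weeks on a standard diet, with both copies of Mof (Mof+/+) or with 1 copy (Mof+/-). For each genotype the labels name 2 libraries each of the MOF precipitate, an H3 precipitate and input, 12 in all. Each genotype has 1 peak list with no column for a library, so no value has a replicate and no spread between mice can be given. The tissue was used whole, and fewer cells with bound MOF and less MOF per cell cannot be told apart.

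MOF, also called KAT8, is an acetyltransferase of histone H4. Replication-dependent histone genes are short, lack introns in their typical form and sit in clusters, the largest of which is called Hist1. They are switched on when cells copy their DNA, and their messenger RNAs end in a stem-loop in place of a poly(A) tail. H2A, H2B, H3 and H4 form the core of the nucleosome, and H1 binds the linker DNA between nucleosomes. Mature fat cells do not divide, while the immune and vascular cells of fat tissue can.

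The stem-loop gave a check of the members that did not use MOF. A perfect stem of 6 bp that opens with GG, around a loop of the letters TNTN, was searched for in the 150 bases after each stop codon. It was present in 65 of 67 members (97%) and in 13 of 21685 other protein-coding genes, H2afx among them. The commonest form stood in 41 members and in no H4 gene. Every H4 gene had another stem, and the form shown for Hist1h4h stood in 8 of the 13. Both forms are given with the paired stem in capitals, from Hist1h1c at chr13:23739512-23739527 and from Hist1h4h at chr13:23531458-23531473 (GRCm38, plus strand). No such hairpin was found at Hist2h2be or Hist1h2an.
Hist1h1c: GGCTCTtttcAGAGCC
Hist1h4h: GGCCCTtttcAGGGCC

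Promoters of 6 members of H1, H2A, H2B and H4 are shown next, chosen to span genes with a strong, a weak or no MOF peak within 1 kb. Each run holds the 250 bases before the RefSeq start site (GRCm38.p6), read in the direction of the gene. Capitals mark 5 short motifs on either strand: the TATA box TATAAA, the CCAAT box CCAAT, the octamer ATTTGCAT, the GC box GGGCGG and the H1 box AAACACA. Hist1h1e and Hist1h1c had the strongest peaks, and that of Hist1h1e ended 12 bp inside the gene, short of the printed run. Hist1h4h lay at one of the stronger H4 peaks and Hist1h2ac at one of the weakest. Hist1h1t and Hist1h2ba, both known as testis histones, had no peak.
Hist1h1e, chr13:23622559-23622808, minus strand: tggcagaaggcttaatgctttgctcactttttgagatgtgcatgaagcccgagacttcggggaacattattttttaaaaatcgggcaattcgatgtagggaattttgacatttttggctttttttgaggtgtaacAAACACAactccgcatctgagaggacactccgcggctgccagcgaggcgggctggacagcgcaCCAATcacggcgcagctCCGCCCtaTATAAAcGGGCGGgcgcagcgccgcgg
Hist1h1c, chr13:23738557-23738806, plus strand: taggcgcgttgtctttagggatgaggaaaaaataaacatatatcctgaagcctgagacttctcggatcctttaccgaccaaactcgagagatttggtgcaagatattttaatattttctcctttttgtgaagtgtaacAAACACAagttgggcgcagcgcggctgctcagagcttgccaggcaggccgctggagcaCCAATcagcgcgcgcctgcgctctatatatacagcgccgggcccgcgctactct
Hist1h4h, chr13:23530794-23531043, plus strand: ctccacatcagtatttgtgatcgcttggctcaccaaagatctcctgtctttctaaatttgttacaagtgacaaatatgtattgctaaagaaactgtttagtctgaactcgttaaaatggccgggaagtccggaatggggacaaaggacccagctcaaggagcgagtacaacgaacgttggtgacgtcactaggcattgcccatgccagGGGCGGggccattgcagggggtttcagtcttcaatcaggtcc
Hist1h2ac, chr13:23683960-23684209, minus strand: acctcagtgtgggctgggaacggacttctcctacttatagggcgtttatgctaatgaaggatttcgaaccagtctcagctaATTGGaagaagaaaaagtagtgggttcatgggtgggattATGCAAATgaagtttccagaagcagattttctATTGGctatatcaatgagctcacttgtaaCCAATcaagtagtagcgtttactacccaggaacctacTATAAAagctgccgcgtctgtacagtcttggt
Hist1h1t, chr13:23695561-23695810, plus strand: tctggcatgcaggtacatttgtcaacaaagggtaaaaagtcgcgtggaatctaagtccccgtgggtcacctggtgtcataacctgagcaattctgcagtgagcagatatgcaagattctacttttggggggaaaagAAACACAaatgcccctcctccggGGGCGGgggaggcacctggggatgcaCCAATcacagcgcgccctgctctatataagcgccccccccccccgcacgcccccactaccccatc
Hist1h2ba, chr13:23934157-23934406, minus strand: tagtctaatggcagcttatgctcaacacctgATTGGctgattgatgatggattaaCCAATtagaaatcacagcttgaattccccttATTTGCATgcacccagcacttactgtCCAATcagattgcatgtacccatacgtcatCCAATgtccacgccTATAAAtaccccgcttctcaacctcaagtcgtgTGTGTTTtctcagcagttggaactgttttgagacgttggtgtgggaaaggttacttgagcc

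Promoter sequence was at hand for 62 of 67 members. Those without an entry were Hist2h2be, Hist2h4, Hist1h3f, Hist1h2bc and Hist1h3a. The CCAAT box was found in 51 of 62 member promoters (82.3%) and in 34.5% of 27025 promoters, 1 per gene. The octamer was found in 14 (22.6% against 1.61%), and all 14 belonged to H2A or H2B genes, with 7 each. The TATA box was found in 29 (46.8% against 13%). The classes thus differed in their upstream letters. The H1 box stood before 5 of 6 H1 genes, and over all members in 9 (14.5% against 6.22%). The GC box was as frequent in members as in all promoters (32.3% and 32.9%) but stood before 9 of 12 H4 genes. Hits of different motifs never overlapped in a member. With a Mof+/+ peak and without one, CCAAT boxes stood before 38 of 46 and 13 of 16 members, and octamers before 9 of 46 and 5 of 16. In the same order, TATA boxes stood before 24 and 5, GC boxes before 16 and 4, and H1 boxes before 4 and 5. Motifs were read before RefSeq starts, but peaks were counted at GENCODE starts. Hist1h1d, with TATA, CCAAT and H1 boxes, thus counts as without a peak, although its RefSeq start lies beneath one. For Hist1h2be the motifs and the peak come from starts far apart. Members share promoter sequence, and these splits were not tested.

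In Mof+/+ tissue, 51 of 67 histone genes (76.1%) had a MOF peak within 1000 bp of an annotated start site. Of all protein-coding genes 41.0% had one. In Mof+/- tissue, 0 of 67 histone genes had a peak by the same rule, where 1.32% of all protein-coding genes had one. A count of 0 in 67 allows a share of up to 4.48%, which is above that background, so the missing Mof+/- peaks by themselves do not set the histone genes apart. That limit, like the one given later for peaks, covers counting error only.

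Mof+/+ peaks lay mostly at CpG-rich starts, with a median of 65 CpG pairs at protein-coding genes with a peak and 18 at those without. Members held a median of 62 CpG pairs in the 1001 bp around their 5′ end, against 41 for all protein-coding genes. Among 4133 protein-coding genes with a CpG count inside the interquartile range of the members (52.5 to 73), 64.7% had a Mof+/+ peak. The histone share of 76.1% stood nearer to this figure than to 41.0%. Within the members, those with a peak had a median of 59 CpG pairs and those without a peak 68. The cutting sites of CviKI-1, the enzyme that fragmented the chromatin together with sonication, numbered 26 and 29.5 at the median of these groups.

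By class, the share with a Mof+/+ peak was 66.7% for H1 (4 of 6), 72.2% for H2A (13 of 18), 72.2% for H2B (13 of 18), 75% for H3 (9 of 12) and 92.3% for H4 (12 of 13). Classes are small and neighbours share peaks, so the order of the classes rests on few genes. Within 1000 bp H4 had the highest share, with Hist1h4n as its only gene without a peak. Within 3000 bp the counts were 6 of 6 for H1, 11 of 12 for H3 and 12 of 13 for H4, so H4 was then not the highest. Peaks were also scaled to the lower background of the Mof+/- list, taken as its depth, as described later. The counts were then 3, 8, 10, 8 and 12 for H1, H2A, H2B, H3 and H4. H2A thus fell to 8 of 18 (44.4%) while H4 stayed at 12 of 13. At that depth 25.1% of all protein-coding genes and 37.2% of those with a like CpG count had a peak. The 5 class shares were above both, H2A by the least, but were not tested against them. With GENCODE starts no class had a Mof+/- peak, and with RefSeq starts 1 H2B gene, Hist1h2be, had one.

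**Figure D1:**
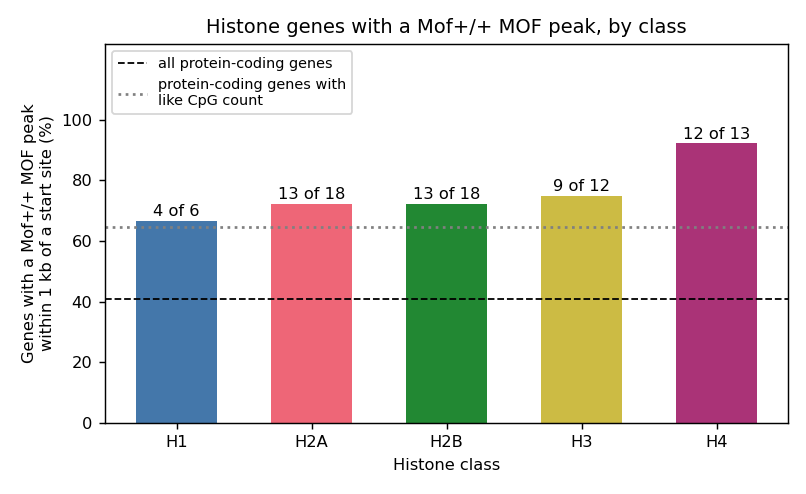
Percent of the genes of each histone class with a Mof+/+ MOF peak within 1 kb of a start site, with the number of genes above each bar. The dashed line is the share of all protein-coding genes (41.0%) and the dotted line that of protein-coding genes with a like CpG count (64.7%). In the list as deposited all 5 bars end above both lines, H1 (4 of 6, 66.7%) only just above the dotted one. Classes are small, neighbours share peaks, and no class was tested against either line.

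Because the genes lie close together, the 51 genes shared 40 distinct Mof+/+ peaks. Of these, 21 lay near 1 member, 14 near 2 and 5 near 3. Fold enrichment, the ratio of fragments over the peak summit to the local input background, had a median of 4.51 at member peaks (interquartile range 3.61 to 5.09, range 2.26 to 9.73). The median of 10141 Mof+/+ peaks at protein-coding starts was 3.76. Of the member peaks, 27 of 40 lay above that value. They were wider too, with a median of 1059 bp against 745 bp. A summit at a member rested on few fragments, 20 at the median and 12 to 43 in range, against 18 for all promoter peaks.

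The linker histone genes gave both the highest and some of the lowest values. The strongest peak, chr13:23620911-23622546, had a fold enrichment of 9.73, a −log10 p-value of 31.9 and 43 fragments at its summit. Only 9 of 10141 promoter peaks were stronger. It covered most of Hist1h1e, a major linker histone of somatic cells, and its summit lay in the coding sequence of that gene. It also counted for Hist1h2be, whose upstream start sites lie in the same stretch. The second strongest, chr13:23738742-23740595, covered all of Hist1h1c, another somatic H1 gene, with a fold enrichment of 8.18, a −log10 p-value of 24.4 and 36 fragments. Hist1h1a had 4.65. Hist1h1b, chr13:21780081-21780640, had 2.52 with 16 fragments and a −log10 p-value of 3.98, among the weakest at any member.

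The remaining H1 genes had no peak at their start. Hist1h1t, expressed in male germ cells, lay 1832 bp from the nearest Mof+/+ peak. Hist1h1d lay 1187 bp from one. Its GENCODE start is 23553262, while RefSeq (as H1f3) starts at 23555032, beneath a Mof+/+ peak of 6.64 at chr13:23554931-23556972 whose summit was in the Hist1h1d coding sequence. With RefSeq starts the count of H1 genes with a peak was thus 5 of 6. The choice of start site decided that call.

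Among the core histones, H4 genes were the most even. Their strongest peaks ranged from 3.98 to 6.14, with a median of 5.09. The highest was that of Hist4h4, which stands alone on chromosome 6, at chr6:136803894-136805346 with 29 fragments and a −log10 p-value of 16.4. Hist1h4h, Hist2h4 and Hist1h4m each had 5.75, Hist1h4a had 5.12, and Hist1h4c and Hist1h4d each had 5.09. Hist1h4j had the lowest, 3.98, and a further weak peak of 2.88 upstream at chr13:21734365-21734760, with 12 fragments and a −log10 p-value of 4.09. Thus no H4 gene that had a peak fell below the median of all promoter peaks.

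H3 genes had a median of 4.42 and ranged from 3.67 at Hist1h3d to 7.52 at Hist2h3b. The Hist2h3b peak, chr3:96268698-96270329, ranked behind only Hist1h1e and Hist1h1c among the members, with 33 fragments and a −log10 p-value of 21.4, and it also reached over Hist2h2bb. H3 and H4 neighbours shared peaks in places. Hist1h4a and Hist1h3a shared 2, of 5.12 and 4.65, and the second reached Hist1h1a.

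H2A and H2B genes mostly stand head to head. There were 13 such pairs of members, 12 of them H2A with H2B and 1 H2B with H3, with 176 to 660 bp between their starts. Both partners shared a Mof+/+ peak in 9 pairs. The strongest was at Hist2h2ac and Hist2h2be, inside a peak 3536 bp wide at chr3:96218887-96222422 that also took in Hist2h2ab and a start site of the neighbouring gene Bola1. Its fold enrichment of 5.96 was the highest for an H2A gene, with 34 fragments at the summit and a −log10 p-value of 18.0. By GENCODE starts the highest H2B value was the 9.73 of the Hist1h1e peak, counted for Hist1h2be. Those starts lie about 35.2 kb upstream of its short RefSeq transcript. The Mof+/+ peak over the Hist1h2be start codon had 6.86, below the 7.52 of Hist2h2bb, so the choice of start site decided this maximum.

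The other 8 pairs with a shared peak lay on both sides of the promoter median of 3.76. The strongest shared peak had 4.87 at Hist1h2ak with Hist1h2bn, 4.65 at Hist1h2ag with Hist1h2bj, 4.64 both at Hist1h2bh with Hist1h3f and at Hist1h2ae with Hist1h2bg, and 4.06 at Hist1h2bl with Hist1h2ai. These 5 pairs stood above the median. The strongest peak shared by Hist1h2bf and Hist1h2ad had 3.10.

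The weakest member peaks included 4 at H2A and H2B genes. At Hist1h2bf and Hist1h2ad the peak over the start region, chr13:23574150-23574513, had 2.26, the lowest at any member, with 17 fragments, a −log10 p-value of 3.47 and a −log10 q-value of 1.15. Hist1h2ac and Hist1h2bc shared a peak of 2.62 at chr13:23683758-23685206, with 18 fragments and a −log10 p-value of 4.51. Peaks of 2.90 lay at Hist1h2an with Hist1h2bp, chr13:21786608-21787612, and between Hist1h2ad and Hist1h3d, chr13:23574850-23575782, each with 16 fragments and a −log10 p-value of 4.84. Medians over genes were 4.06 for H2A and 4.64 for H2B, and H1 had 6.42 over only 4 genes. The ranges of all 5 classes overlapped.

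**Figure D2:**
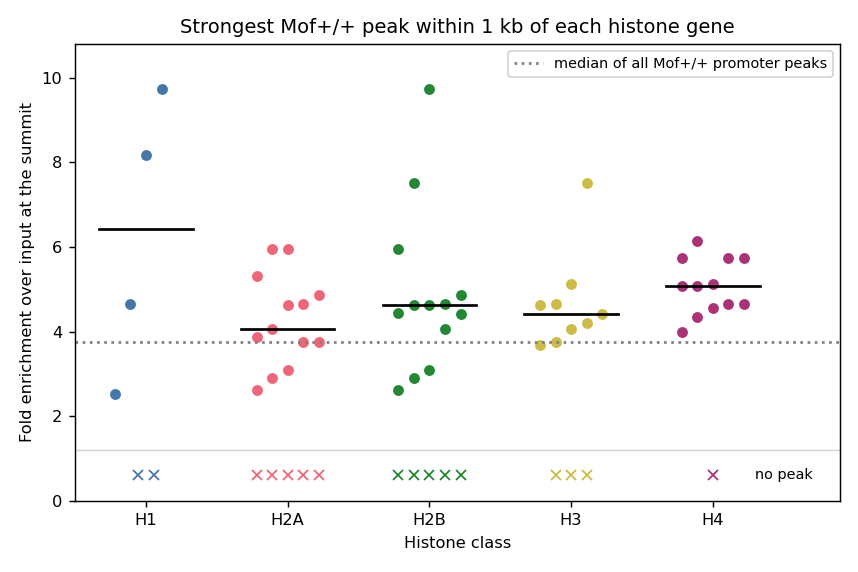
Fold enrichment over input at the summit of the strongest Mof+/+ peak within 1 kb of each member, by histone class. Each point is 1 gene, genes that share a peak share its value, short lines are class medians, crosses are genes without a peak and the dotted line is the median of all Mof+/+ promoter peaks (3.76). Points at 9.73 are Hist1h1e and Hist1h2be, the latter only through its distant GENCODE starts, and all 12 H4 points lie above the dotted line.

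Peaks spread over the gene bodies as well as the promoters. A peak covered the start itself at 41 of 67 members and enclosed the whole gene at 15. Summits lay downstream of the nearest member start in 28 of 40 peaks. In 20 the summit was in the coding sequence of a member, in 6 in a UTR, in 11 between genes and in 3 in an intron or noncoding exon. Like counts for all promoter peaks were not made. Many members are shorter than 1059 bp, the median width of these peaks, so the counts do not set the histone genes apart. The median distance from summit to start was 252 bp, and 205 bp for all promoter peaks. Gene models of 27 members are a multiple of 3 in length, so some of these may hold coding sequence alone and start at the start codon.

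Of the 16 members without a Mof+/+ peak, 3 are testis genes. Besides Hist1h1t, the head-to-head testis pair Hist1h2ba and Hist1h2aa lay farthest out in its cluster, 20097 and 20403 bp from a peak. Another set lay in repeated sequence: Hist1h2bq, Hist1h2ao, Hist1h4n, Hist1h2ap and Hist1h2br in 1 block, and the neighbours Hist2h3c1 and Hist2h3c2 in another. Distances ran from 1358 bp at Hist2h3c1 and 1411 bp at Hist2h3c2 to 21259 bp at Hist1h2br, with 2022, 1754, 19712 and 21023 bp at Hist1h2bq, Hist1h2ao, Hist1h4n and Hist1h2ap. The others were Hist1h2bm (4502 bp), Hist1h2ah (5377 bp), Hist1h2bk (5075 bp), Hist1h2af (2021 bp), Hist1h3g (3537 bp) and Hist1h1d.

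The repeated block is shown by the bases between the RefSeq starts of Hist1h2bq and Hist1h2ao, at chr13:21810200-21810366, on the plus strand with CCAAT boxes in capitals. All 250 bases before Hist1h2bq were identical to those before Hist1h2br. Within 1000 bp of the 5′ ends of Hist1h2bq, Hist1h2ao, Hist1h2ap and Hist1h2br, no run of 50 or of 150 bases occurred only once in the genome.
Hist1h2bq and Hist1h2ao: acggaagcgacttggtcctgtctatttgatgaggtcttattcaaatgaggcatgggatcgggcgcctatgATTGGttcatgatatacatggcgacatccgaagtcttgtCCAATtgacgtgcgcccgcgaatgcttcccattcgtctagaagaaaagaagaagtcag

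Uniqueness was measured as the percent of 50-base words within 1000 bp of the 5′ end that occur once in the genome, 50 bases being the length of a sequenced read. It was 0% at Hist1h2bq, Hist1h2ao, Hist1h2ap and Hist1h2br, 8.04% at Hist1h4n, and 21.5% and 22.4% at Hist2h3c1 and Hist2h3c2. Of 8 members under 25%, 1 had a Mof+/+ peak, Hist1h4m (7.02%), whose peak of 5.75 lay 473 bp beyond its start. Of the 59 other members, 50 had one. The peak share was 18 of 21 between 50 and 75% and 30 of 36 above 75%, so the contrast lay at the lowest uniqueness. The testis genes Hist1h1t (100%) and Hist1h2ba with Hist1h2aa (92.9%) had no peak in largely unique sequence. How reads that map to several places were treated is not given in the sources used here, and their part in the missing peaks was not tested.

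**Figure D3:**
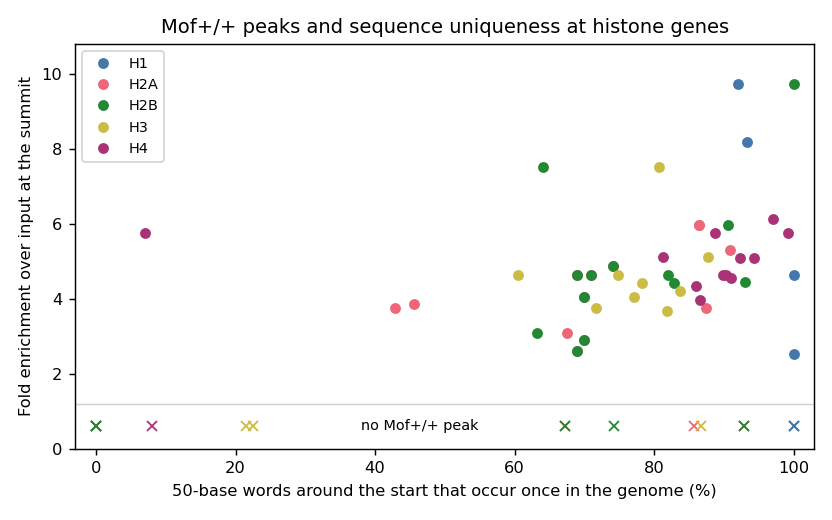
Fold enrichment over input of the strongest Mof+/+ peak of each member (vertical) against the percent of 50-base words around its 5′ end that occur once in the genome (horizontal), coloured by histone class. Crosses are members without a peak, some of which coincide, and 7 of the 16 lie under 25%.

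By position the members formed 5 clusters, with under 500000 bp between neighbouring starts. They lay on chromosome 3 (10 genes), chromosome 6 (Hist4h4), chromosome 11 (2 genes) and chromosome 13 (23 and 31 genes). Within 1000 bp of the outermost starts these held 52 Mof+/+ peaks, of which 40 lay at members, and 41 remained after joining peaks within 1000 bp of each other. The joined peaks numbered 5, 1, 2, 14 and 19 in the 5 clusters. Members with a peak numbered 8 of 10, 1 of 1, 2 of 2, 15 of 23 and 25 of 31. The largest clusters thus also held most members without a peak.

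Of the 12 Mof+/+ peaks away from member starts, 4 lay within 1 kb of a tRNA gene and 3 within 1 kb of the start of another protein-coding gene. In the cluster of 23 genes, 31 tRNA genes lie among the histone genes, and 8 of them had a Mof+/+ peak within 1 kb. Of 371 tRNA genes outside the histone clusters, 135 (36.4%) had one. The strongest of these peaks, 6.14 at chr13:21994263-21996277, exceeded every histone peak of that cluster.

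The clusters held 5 Mof+/- peaks, and none was at a GENCODE start of a member. In the cluster of 23 genes, 4 lay within 1 kb of tRNA genes: 4.20 at chr13:21994943-21996198 near n-TQctg1, 4.29 at chr13:22014316-22015321 near n-TVaac3, and 4.29 and 4.54 at chr13:22020134-22020508 and chr13:22021289-22021648 near n-TRacg1. The Mof+/+ peaks they overlapped had 6.14, 4.42 and 5.53. The nearest member starts were 13920 bp away or more. Of the tRNA genes of this cluster, 5 of 31 had a Mof+/- peak, and of 371 tRNA genes outside the histone clusters 7 did (1.89%). These tRNA genes are neighbours and share peaks.

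The fifth Mof+/- peak, chr13:23585051-23585385, lay in the transcribed part of Hist1h2be, an H2B gene. Its fold enrichment was 4.94, with 19 fragments and a −log10 p-value of 9.97. It sat inside a Mof+/+ peak of 6.86 at chr13:23583498-23586246. GENCODE places every start of Hist1h2be about 35.2 kb upstream, the outermost at 23621124, whereas RefSeq (as H2bc6) also has a short transcript that starts at 23585970. From that start the Mof+/- peak was 585 bp away. With RefSeq starts, or with start codons, 1 of 67 members therefore had a Mof+/- peak, and with GENCODE starts 0 did.

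**Figure D4:**
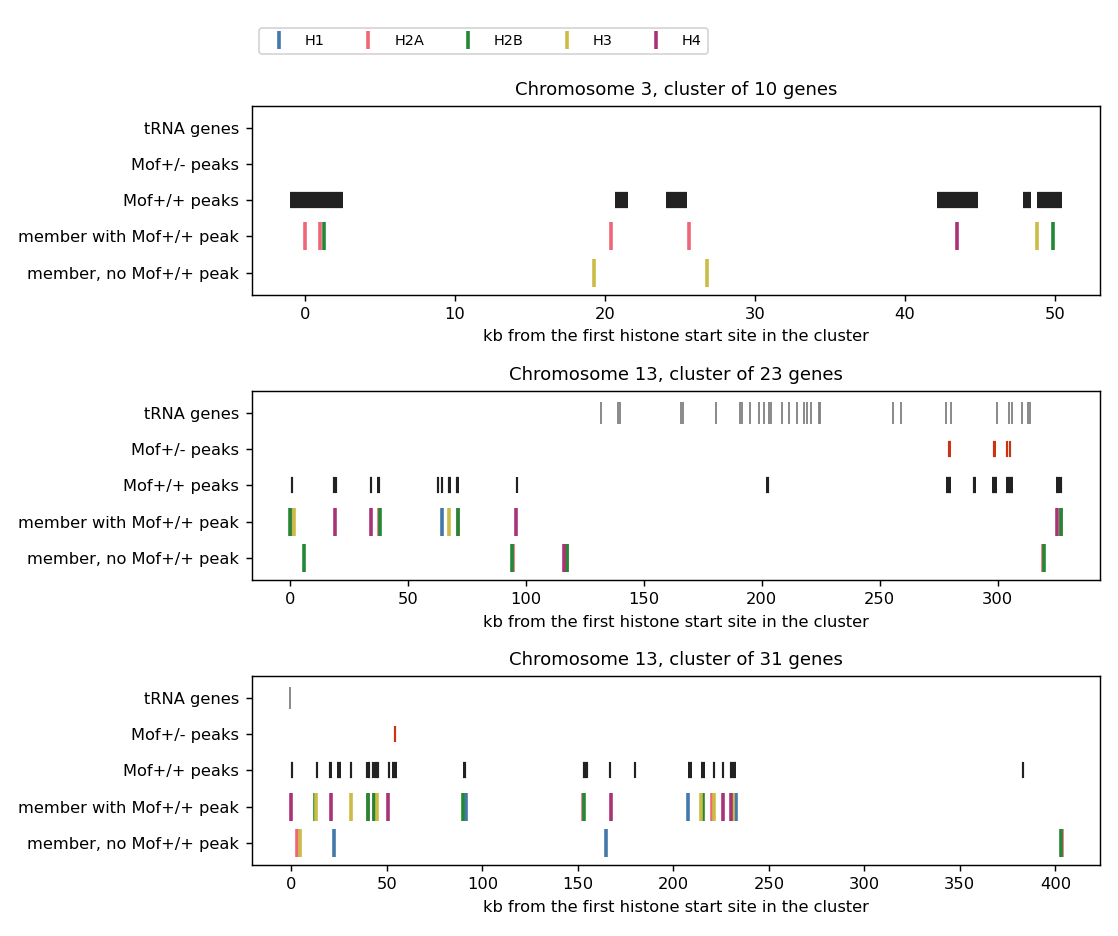
Positions, in kb from the first histone start of each cluster, of member start sites (coloured by class, with and without a Mof+/+ peak), Mof+/+ peaks (black), Mof+/- peaks (red) and tRNA genes (grey) in the 3 largest clusters. Peaks too narrow to see are drawn at a minimum width. The chromosome 3 cluster has no Mof+/- peak, the cluster of 23 genes has 4 among its tRNA genes and the cluster of 31 genes has 1.

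Stronger Mof+/+ promoter peaks overlapped the Mof+/- list more often. Over all promoter peaks, 296 of 10141 (2.92%) shared at least 1 bp with a Mof+/- peak, against 0 of 40 member peaks, which allows up to 7.5%. With RefSeq starts 1 of 42 member peaks did, the peak of 6.86 in Hist1h2be. Among promoter peaks with a fold enrichment from 7 to 9.73, 43 of 160 overlapped (26.9%), and 0 of the 3 member peaks in that range did. From 4 upwards to 9.73, the numbers were 194 of 4063 (4.77%) and 0 of 25, or 1 of 27 with RefSeq starts. With 25 and 3 peaks these counts cannot show a difference from the promoter shares.

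Background differed between the lists and was taken here as a measure of their depth. Read counts were not compared. The lowest background recovered from the deposited values was 3.52 fragments in Mof+/+ and 2.26 in Mof+/-, a ratio of 0.642. The weakest peak listed had a −log10 p-value of 3.25 in Mof+/+ and 4.72 in Mof+/-. Of the 40 member peaks, 33 (82.5%) reached 4.72, against 81% of all promoter peaks. After fragments and background were scaled to the Mof+/- depth, 28 (70%) still did, compared with 52.3% of all promoter peaks. The shares were close before scaling and apart after it, and that difference was not tested. Weaker precipitation and less bound MOF in the Mof+/- libraries cannot be told apart.

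**Figure D5:**
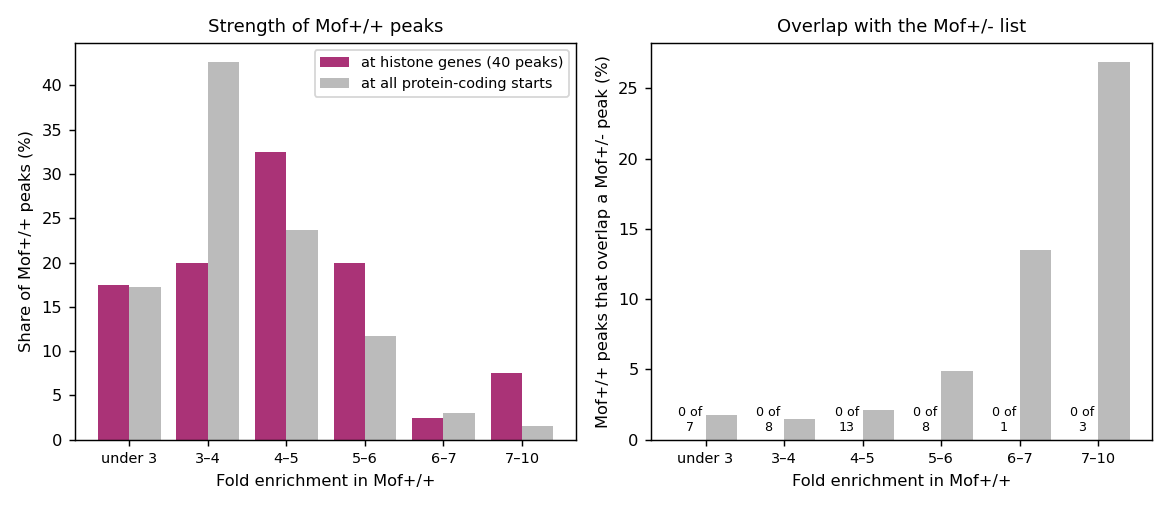
Left, percent of Mof+/+ peaks in each range of fold enrichment, for the 40 peaks at histone genes and for 10141 peaks at protein-coding starts. Right, percent of the peaks in each range that overlap a Mof+/- peak. The promoter share rises from 1.78% below 3 to 26.9% between 7 and 10, while histone peaks, taken with GENCODE starts, are at 0 in each range. With RefSeq starts the range from 6 to 7 would hold 1 that overlaps.

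Most genes that serve histone production had a Mof+/+ peak. Of 21 genes for histone transcription, messenger RNA 3′ end processing and histone assembly, 18 (85.7%) had one. Slbp, which codes for the protein that binds the stem-loop, had 5.31. Lsm11, a subunit of the U7 particle that cuts these RNAs, had 3.32, and the histone chaperone genes Asf1a and Nasp had 7.08 and 6.19. Npat, Hinfp and Coil had none, of which Npat and Hinfp code for activators of histone transcription.

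The same held for histone genes that are not tied to replication. Of 11 replication-independent histone genes, 9 (81.8%) had a Mof+/+ peak, with H2afy, which codes for macroH2A, at 6.84, H3f3b at 6.19, H3f3a at 5.73 and H2afz at 4.42. H2afx, whose RNA can end in the stem-loop, had 5.60. Of 18 S phase and proliferation genes, 14 (77.8%) had one. The Mof+/+ shares were all above 41.0%, as was that of the histone genes. The share among genes with a like CpG count was not computed for these lists, so CpG content was not accounted for. None of the genes in these lists had a Mof+/- peak, but with 1.32% of all protein-coding genes at one, lists of this size do not stand apart by that.

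Marker genes of the tissue were bound in part. Peaks in Mof+/+ stood at 4 of 8 adipocyte genes, including Lipe (5.09) and Adipoq (2.59) but not Fabp4 or Pparg, a share of 50% beside the 41.0% of all protein-coding genes. They stood at 5 of 6 B cell genes, with Cd79b at 7.30, at 5 of 6 T cell genes, at 1 of 5 macrophage genes and at 1 of 4 endothelial genes. Each list is small, and none was tested against that share. By ChIP-qPCR, a different assay, the paper reports MOF at a Pparg promoter in this tissue, so a missing listed peak does not mean unbound. The only marker with a Mof+/- peak, which 1.32% of all protein-coding genes had, was Pax5 (3.99), a B cell gene. Immune cells in fat can divide, and their part in the peaks at histone genes was not tested.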

How the data were processed

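Members, lists and alternatives were chosen with earlier results of these data known. Per the labels and methods, the authors mapped 2×50 bp reads to GRCm38 with snakePipes 2.1.2 and called peaks against input with MACS2 2.1.1.20160309.3 at a q-value of 0.1. The deposited peak lists give a score (not used here), a fold enrichment (a ratio), −log10 p-values, −log10 q-values and the summit position. The methods name a merging of peaks within 1000 bp, which the lists do not show. Neither list names a library. The design text gives 2 control and 3 Mof+/- animals, the labels 2 replicates each.

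A gene counted when any base of a peak lay within 1000 bp of a GENCODE M21 start. Fold enrichment has 1 added to both terms. Fragments and background at each summit were solved from fold enrichment and p-value (Poisson, tolerance 0.01). RefSeq GRCm38.p6 gave sequence, matching all 67 members by older symbol. Full values were given for the 5 strongest and 5 weakest member peaks, with ties, and the strongest of each class. Scripts used Python 3.11.15, pandas 2.3.3, scipy 1.17.1 and numba 0.67.0, and were tested on simulated data. H3 and input libraries were not analysed here.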

Additional observations from a re-analysis of the deposited data

How the results depend on the processing

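Of 124 recomputed values for 12 results, 117 stayed within 1.5 times the value reported, or at 0. Windows of 250, 500 and 3000 bp gave 47, 51 and 58 histone genes with a Mof+/+ peak, and q-values of at most 0.01 and 0.001 gave 48 and 44. Joining distances of 0 and 3000 bp gave 52 and 33 merged peaks in the clusters. Windows, q-values, gene-record starts, summit placement and overlap rules left the Mof+/- counts at 0. RefSeq starts, start codons, scaled depth and the uniqueness filter were chosen after seeing the data, and they moved 7 values. With RefSeq starts, and with GENCODE start codons, the histone genes with a Mof+/- peak, the Mof+/- peaks at histone genes and those that overlap a Mof+/+ peak each went from 0 to 1, through Hist1h2be. At the Mof+/- depth, H2A genes with a Mof+/+ peak went from 13 to 8, and all histone genes from 51 to 41 (61.2%, against 25.1% of all protein-coding genes at that depth). Leaving out the members under 25% unique words left 50 of 59 genes with a Mof+/+ peak. No paired analysis was possible because the lists, 1 per genotype, carry no replicate numbers.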
